A study of Mus musculus with 8 samples.

Results

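Zeb1, Zeb2, Snai1, Snai2, Snai3, Twist1 and Twist2 encode the transcription factors best known for switching epithelial cells towards a mesenchymal state. The 7 genes were taken by name, and every 200 bp tile that overlapped the RefSeq span of a gene (build GRCm38) or the 2 kb on either side was collected from 8 tables of methylation differences. These windows held 53 distinct tiles of 53375, listed 91 times among 75041 entries, and each of the 7 genes had at least 1 listed tile.

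Mouse proximal colon organoids were profiled by reduced representation bisulfite sequencing, a method that enriches CpG-rich stretches of the genome by a restriction digest. All organoids came from male mice about 40 days old that carried the Cre-activable BrafV600E allele on one chromosome (Braf+/LSL), so control organoids hold the silent allele too. The 8 libraries form 4 groups, each with organoid line 1 and organoid line 3. In the first group lentiviral Cre had switched on BrafV600E, the constitutively active BRAF kinase, and the organoids, at 5 months of culture, were selected in Base medium, which has no stem-cell niche factors. Their controls carried the empty lentiviral vector (EV) and grew for 5 months in full medium, which contains Wnt3a, R-spondin, Noggin and EGF. The third group is EV organoids kept in full medium for 12 months (line 1) or 14 months (line 3), and its controls are EV organoids of the same line after 2 months in full medium. Every library was labelled with 3 further weeks of growth in its medium. The labels do not say whether a line is 1 animal, a pool or a clone. BrafV600E and Base medium were introduced together, so the oncogene and the medium cannot be told apart. The title was followed for 2 libraries whose labels conflict. The line 1 BrafV600E library names line 3 in another field, and the line 3 library titled 14 months is tagged 2 months.

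Each table compares 1 library with 1 library of the same line and lists the tiles with a difference of 20 percentage points or more and a q-value no higher than 0.01. A positive difference (gain) means more methylation in the BrafV600E organoids than in EV organoids, or more after 12 or 14 months than after 2 months. The tables hold no read counts or methylation levels, so the depth behind a tile is unknown. A tile absent from a table may have been unchanged, below the limits or not covered. The q-values are the authors' and compare 2 libraries; the lines are the only replicates, at 2 a group, and no test across samples was made. RNA was not analysed here, so neither the expression of these genes nor the epithelial identity of the organoids was checked.

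The Zeb proteins carry zinc fingers at both ends and a homeodomain, the Snai proteins are zinc finger repressors and the Twist proteins are basic helix-loop-helix factors. All bind E-box sequences, and Zeb and Snai proteins silence E-cadherin and other junction genes. In normal colon epithelium these factors are largely off, and the microRNAs of the miR-200 family hold Zeb1 and Zeb2 down. In human colorectal tumours TWIST1 is among the genes that gain promoter methylation.

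The starts of Twist2, Zeb2 and Twist1 are shown because listed tiles reached into or surrounded them. Each sequence is the 250 bases before an annotated transcription start, from RefSeq (GRCm38.p6), 5′ to 3′ on the gene's strand, with CpG dinucleotides in capitals. Twist2 is chr1:91801211-91801460 (plus strand), the inner Zeb2 start is chr2:45110278-45110527 (minus strand) and Twist1 is chr12:33957421-33957670 (plus strand).
Twist2: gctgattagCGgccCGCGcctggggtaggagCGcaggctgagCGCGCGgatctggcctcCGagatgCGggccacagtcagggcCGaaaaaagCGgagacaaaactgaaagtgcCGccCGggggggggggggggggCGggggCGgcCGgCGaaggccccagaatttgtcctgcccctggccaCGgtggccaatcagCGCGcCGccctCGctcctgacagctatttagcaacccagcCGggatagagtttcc
Zeb2, inner start: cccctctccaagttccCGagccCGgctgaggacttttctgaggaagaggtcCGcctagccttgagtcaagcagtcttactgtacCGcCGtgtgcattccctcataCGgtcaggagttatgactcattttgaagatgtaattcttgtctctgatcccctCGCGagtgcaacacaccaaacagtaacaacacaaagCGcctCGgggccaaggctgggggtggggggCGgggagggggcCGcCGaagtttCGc
Twist1: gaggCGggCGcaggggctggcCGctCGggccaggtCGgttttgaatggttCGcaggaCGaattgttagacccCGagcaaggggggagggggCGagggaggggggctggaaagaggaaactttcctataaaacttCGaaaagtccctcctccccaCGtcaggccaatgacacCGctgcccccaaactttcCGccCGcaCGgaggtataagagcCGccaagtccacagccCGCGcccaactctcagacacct

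These stretches hold 23 CpGs (Twist2), 14 CpGs (Zeb2) and 18 CpGs (Twist1), against a median of 6 over 32851 such windows in the promoter table. The Snai1 window, whose nearest listed tile begins just past the start, holds 27 CpGs. The letters CCGG, the site cut by MspI, the enzyme usual in this kind of library, occur 3 times in the Twist2 stretch, once in the Zeb2 stretch and 0 times in the Twist1 stretch; 47.1% of all windows hold at least 1. The site reads the same on both strands. E-box letters of the kind bound by Zeb and Snai proteins (CACCTG on either strand) occur once in the Snai1 window and in none of the 3 stretches shown, and 17.2% of all windows hold them. The promoter table had entries for Zeb2, Snai1, Twist1 and Twist2 and not for Zeb1, Snai2 and Snai3, whose tiles are placed by the ends of the annotated gene.

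With BrafV600E in Base medium, Zeb1 and Snai2 lost methylation in both lines, with 0 gained tiles, and Twist1 gained methylation in both lines, with 0 lost tiles. Zeb2, Snai1 and Twist2 gained tiles in both lines but also lost tiles in at least 1 of them, and Snai3 had 1 lost tile in line 3. Of the 7 genes, 4 had a gained tile in line 1 (17.8% of 21887 protein-coding genes did) and 4 in line 3 (20.9%). Lost tiles were found at 3 genes in line 1 (10.5% of protein-coding genes) and 6 in line 3 (20.4%). Gains in both lines, as at Zeb2, Snai1, Twist1 and Twist2, were found at 11.3% of protein-coding genes, and losses in both lines, as at Zeb1, Snai2 and Twist2, at 6.07%. Tiles of loss only in each line, the pattern of Zeb1 and Snai2, were found at 1.69% of protein-coding genes, and tiles of gain only in each line, the pattern of Twist1, at 4.31%. Long genes have more chances to hold a tile: of the 2429 genes of at least 100 kb, which include Zeb1 and Zeb2, 44.7% had a gain and 30.9% a loss in line 1, and 48.3% and 49.4% did in line 3. Gains in both lines were found at 32.3% of these long genes and losses in both at 23.1%.

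After long culture Zeb2 and Twist1 gained methylation in both lines with 0 lost tiles, and Zeb1 gained tiles at one end in both lines and lost a tile elsewhere in each. Snai2 and Twist2 lost methylation in line 1 and gained it in line 3, and Snai1 and Snai3 had 0 listed tiles. Gained tiles were found at 3 of the 7 genes in line 1 (8.55% of protein-coding genes) and 5 in line 3 (20.3%), and lost tiles at 3 in line 1 (10.9%) and 1 in line 3 (12.2%). Gains in both lines, as at Zeb1, Zeb2 and Twist1, were found at 6.5% of protein-coding genes and gain only in each line, the pattern of Zeb2 and Twist1, at 3.03%. Losses in both lines, as at Zeb1, were found at 4.07% and loss only in each line, which 0 of the 7 genes had, at 1.16%. Among the long genes 21.4% had a gain and 31.7% a loss in line 1, 49.1% and 34.4% did in line 3, and 18.6% had a gain and 17.7% a loss in both lines. The line 3 table held 31 of the 39 entries in this comparison. In line 1 the gains rested on 1 tile each at Zeb1, Zeb2 and Twist1. The directions in line 3 follow the title of the library tagged 2 months. With the 14-month and 2-month libraries of line 3 exchanged, Zeb2 would have 12 lost tiles and Twist1 6. The lines would then differ in direction at these genes.

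**Figure D1:**
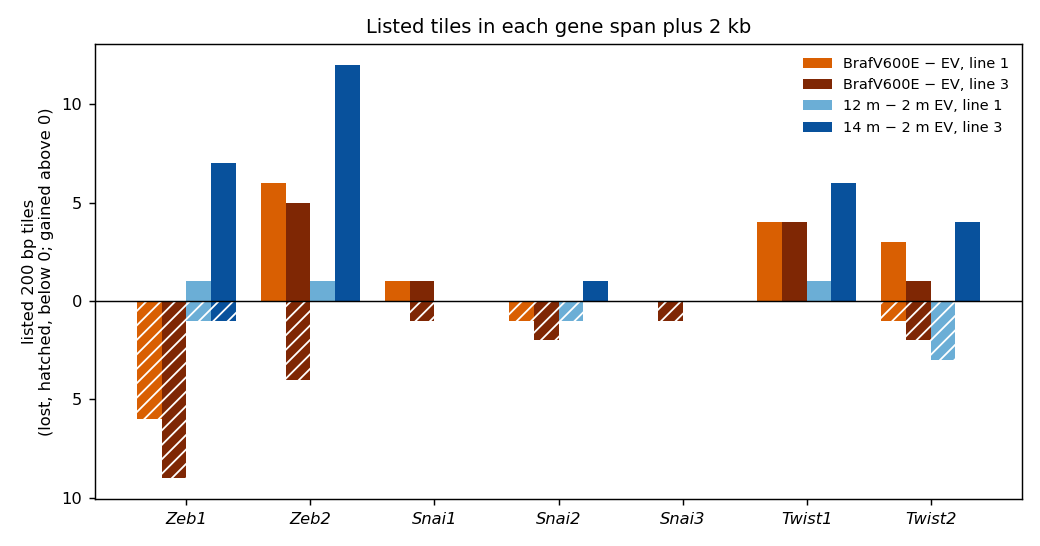
Number of listed 200 bp tiles (y axis) in each gene span plus 2 kb, gained above 0 and lost (hatched) below 0, with 1 bar per within-line comparison. Zeb1 has 6 and 9 lost tiles with BrafV600E in lines 1 and 3, while the tallest bar is Zeb2 with 12 gained tiles in line 3 after 14 months.

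The balance of gains and losses at the 7 genes lay within 4 percentage points of that of the whole table in 3 of the 4 comparisons. With BrafV600E, 63.6% of 22 entries at the 7 genes were gains in line 1 (67.5% of all listed tiles) and 36.7% of 30 in line 3 (40.4%). After long culture 37.5% of 8 entries were gains in line 1 (40.9%) and 96.8% of 31 in line 3 (71.9%). The line 3 value follows the title of the library tagged 2 months; with the 14-month and 2-month libraries of line 3 exchanged, 30 of its 31 entries would be losses and 3.23% gains. With BrafV600E the median gain at the 7 genes was 39.5 points in line 1, where the median over all gained tiles of the authors' deposited table was 42.8 points, and 44.2 points in line 3, where it was 44.1 points. After long culture the lines had median gains of 45.2 points (line 1) and 52.7 points (line 3), against 39.5 and 44.2 points over all gained tiles of the authors' deposited tables. The median losses in lines 1 and 3 were -40.1 and -45.8 points with BrafV600E, against -44.1 and -46.4 points over all lost tiles. After long culture the median of the 5 losses in line 1 was -46.7 points and the single loss in line 3 was -68.3 points, against -47.2 and -46.2 points over all lost tiles of the authors' deposited tables. Of the tiles at the 7 genes, 5 runs of at least 3 tiles, with gaps of no more than 1 kb, held 39 of the 53 distinct tiles and 72 of the 91 entries, or 73.6% and 79.1%. In the whole series such runs held 28.7% of distinct tiles and 34.7% of entries, counted over all listed tiles and not gene windows alone. The 5 runs of the 7 genes lay at one end of Zeb1, at the inner and outer starts of Zeb2, and around the starts of Twist1 and Twist2.

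Zeb1 (gene 21417, chromosome 18, 5591327 to 5775468) represses E-cadherin and the miR-200 genes. A run of 10 tiles, 2.4 kb long, lies at the lower-coordinate end of the gene, and Zeb1 is known to be transcribed from that end. In the authors' deposited tables for BrafV600E, line 1 lists 5 tiles of this run and line 3 lists 7, all lost, with means of -45.4 and -62.5 points. After long culture the same run carried gains and 0 losses, at 1 tile in line 1 (45.2 points) and at 7 tiles in line 3, which averaged 59.8 points by the authors' deposited tables. The comparisons share no library. The 7 gained tiles of line 3 rest on the title of the library tagged 2 months, and with the 14-month and 2-month libraries exchanged they would be losses; the 45.2 points of line 1 do not rest on it. The losses of line 1 come from the BrafV600E library that names line 3 in another field.

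The Zeb1 tile at 5592001 to 5592200 and a Snai2 tile were the 2 tiles of the 7 genes listed in all 4 within-line comparisons. With BrafV600E the authors' deposited tables put the Zeb1 tile at -50.5 points in line 1 (q = 2.62e-15) and -74.5 points in line 3 (q = 3.2e-62). After long culture the authors' deposited tables put it at 45.2 points in line 1 (q = 3.05e-11) and 39.0 points in line 3 (q = 5.99e-41). As titled, both lines were lower with BrafV600E and higher after long culture. The neighbouring tile at 5591801 was at -55.3 points in line 1 and -88.7 points in line 3 with BrafV600E, and the one at 5592201 at -37.2 and -55.2 points, by the authors' deposited tables. Line 3 had the larger loss at each of these 3 tiles. The 2 tiles nearest the gene end, at 5591201 and 5591401, were listed as lost in line 1 but not in line 3, at -26.0 and -57.9 points by the authors' deposited tables. Tiles further in, at 5592401, 5592601 and 5593401, were listed with BrafV600E in line 3 alone, at -45.8, -61.7 and -29.1 points by the authors' deposited tables.

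In all, 4 Zeb1 tiles were listed in both lines with BrafV600E, each time as losses; the fourth, at 5772401 near the other end of the gene, was at -42.9 and -44.2 points (lines 1 and 3, the authors' deposited tables). Of the Zeb1 tiles listed in both comparisons of the same line, 1 in line 1 and 4 in line 3, each was lost with BrafV600E and gained after long culture. Over the whole series, tiles listed in both comparisons went in opposite directions in 1219 of 2384 cases in line 1 and 3348 of 6964 in line 3. Away from the run, single tiles of loss were listed after long culture at 5773201 in line 1 (-70 points) and at 5659801 in line 3 (-68.3 points) in the authors' deposited tables. The non-coding gene Gm10125 overlaps this end of Zeb1 and shares 7 of its 14 distinct tiles, so those tiles belong to both genes. The count of 6 lost tiles in line 1 was reached by 25 of 21887 protein-coding genes, or 12 of the 2429 long ones, and the count of 9 in line 3 by 156, or 136 of the long ones.

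**Figure D2:**
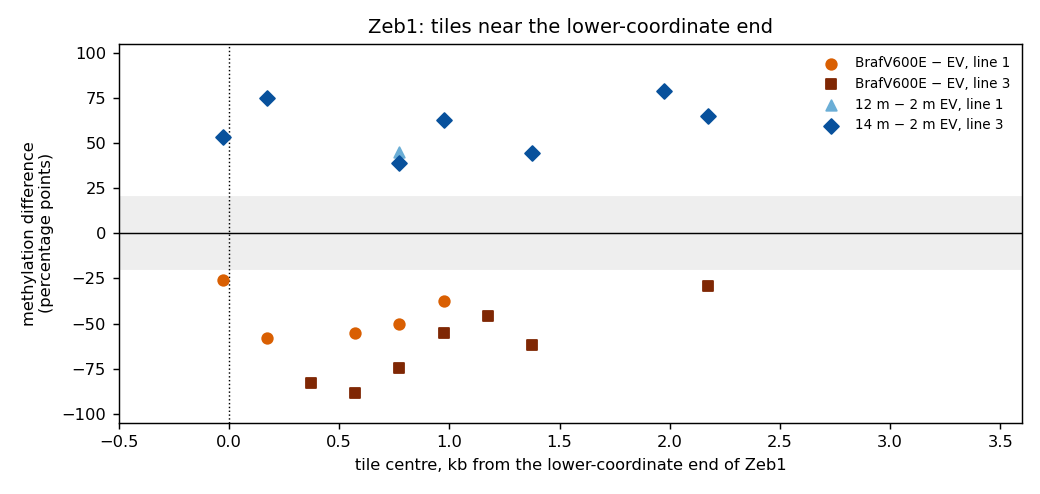
Methylation difference in percentage points (y axis) of the Zeb1 tiles in the run at its lower-coordinate end, by distance in kb of the tile centre from that end (x axis). Each point is 1 tile in 1 within-line comparison, the grey band marks the differences under 20 points that are not listed, and all BrafV600E points lie below 0 and all long-culture points above it.

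Zeb2 (gene 24136, chromosome 2, 44983512 to 45117442) encodes the close relative of Zeb1 and binds SMAD proteins of the TGF-beta pathway. It is read from the minus strand, with 4 starts in the promoter table. Its listed tiles form a run of 4 tiles just inside the outermost start and a run of 10 tiles, 2.6 kb long, around the inner start whose sequence is given. At the outermost start every entry was a gain. In the authors' deposited tables these were 1 tile at 40.5 points in line 1 and 3 tiles in line 3 that averaged 44.9 points with BrafV600E, and 1 tile at 55.8 points in line 1 and 2 tiles in line 3 that averaged 44.8 points after long culture. No tile of this run was listed in both lines of a comparison.

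At the inner start the lines differed. With BrafV600E, line 1 lists 5 gained tiles there with a mean of 35.7 points, and line 3 lists 4 lost tiles and 1 gained tile with a mean of -13.3 points by the authors' deposited tables. The 3 tiles listed in both lines had opposite signs: at 45109601 line 1 was at 26.8 points and line 3 at -27.2 points, at 45109801 they were 42.0 and -21.3 points, and at 45110001 they were 38.5 and -23.2 points by the authors' deposited tables. The line 1 BrafV600E library is the one whose labels name both lines. The tile at 45110201, which covers the inner start and part of the sequence shown, was listed in line 3, at -39.2 points with BrafV600E and 55.2 points after 14 months in the authors' deposited tables, and not in line 1.

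After 14 months, line 3 gained methylation at 9 tiles of the inner run with a mean of 54.5 points by the authors' deposited tables. The highest was 74.6 points at 45109601 (q = 2.98e-88) and the lowest 21.6 points at 45111001. That last tile and the one at 45111201 also lie in the antisense gene Zeb2os, and the data do not separate the strands. Line 1 lists 0 tiles of the inner run after 12 months. The 12 gained tiles of Zeb2 in line 3 after 14 months were matched or exceeded at 112 of 21887 protein-coding genes, 47 of them among the 2429 long genes. In line 3, 7 Zeb2 tiles were listed in both comparisons. Of these 3 were gained in both, and 4 were lost with BrafV600E and gained after long culture.

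**Figure D3:**
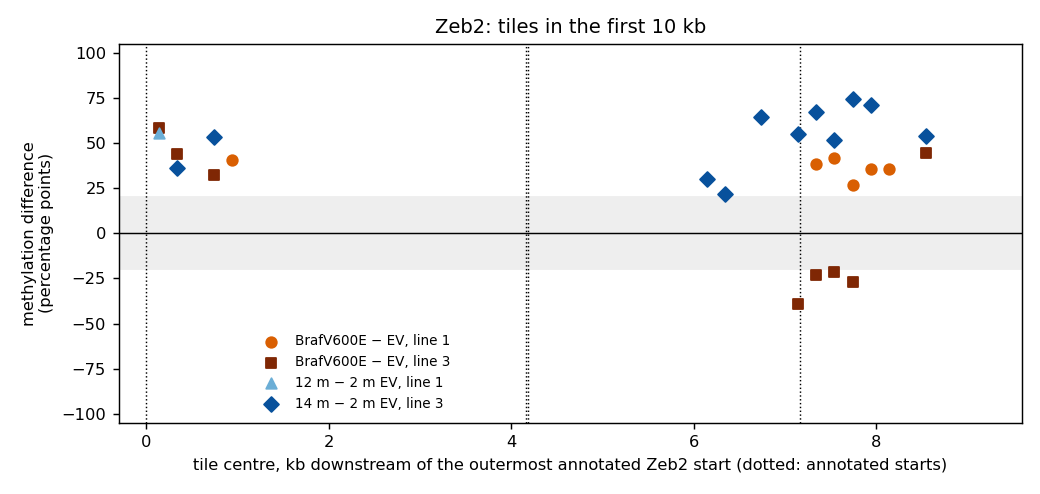
Methylation difference in percentage points (y axis) of Zeb2 tiles by distance in kb downstream of the outermost annotated start (x axis), with dotted lines at annotated starts and a grey band at differences under 20 points, which are not listed. Around the inner start the BrafV600E points of line 1 lie above 0 and 4 of line 3 below it, while all long-culture points lie above 0.

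Twist1 (gene 22160, chromosome 12, 33957671 to 33959831) is a basic helix-loop-helix factor of mesoderm and neural crest, and its human counterpart is a colorectal methylation marker. All 15 of its entries were gains, at 8 distinct tiles. With BrafV600E the same 4 tiles were listed in both lines, 3 of them upstream of the start and 1 beyond the far end of the gene. All 4 lie in the flanks, so without the 2 kb on either side Twist1 had 0 listed tiles with BrafV600E. In the authors' deposited tables the upstream tiles at 33956001, 33956201 and 33956401 gained 55.8, 50.6 and 71.9 points in line 1 and 24.3, 66.8 and 66.3 points in line 3. The tile at 33961401, with its centre 1670 bp beyond the gene, gained 96.9 points in line 1 and 62.9 points in line 3 in the authors' deposited tables. No tile of Twist1 between these places was listed with BrafV600E, and none in any table overlapped the 250 bases shown.

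After long culture the Twist1 gains lay closer to the start. Line 3 lists 6 tiles with a mean of 47.1 points, among them 68.4 points at 33957801 (q = 7.71e-92) and 55.5 points at 33958001 (q = 2.83e-119), both inside the transcribed part, in the authors' deposited tables. Line 1 lists 1 tile, also at 33958001, at 25.5 points by the authors' deposited table. In line 3 the tiles at 33956001 and 33956201 gained in both comparisons. By the authors' deposited tables they were at 24.3 and 66.8 points with BrafV600E and at 29.0 and 26.3 points after 14 months.

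Twist2 (gene 13345, chromosome 1, 91801461 to 91848034), also called Dermo1, regulates dermis and bone precursors. A run of 8 tiles, 1.8 kb long, spans its start and held both gains and losses in each comparison. With BrafV600E line 1 gained at 3 tiles of the run with a mean of 36.4 points, while line 3 lists 1 gain of 20.0 points and differences of -83.5 and -52.4 points by the authors' deposited tables. The tile at 91800801, the only one listed in both lines, gained in each, with 38.3 and 20.0 points in the authors' deposited tables. The losses of line 3, at 91800601 and 91802201, lay to either side of the tiles that gained in line 1. Line 1 had a lost tile further into the gene, at 91804801, with a difference of -37.3 points by the authors' deposited table.

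With age of the culture, line 1 lost methylation at 3 Twist2 tiles, which averaged -41.3 points, and line 3 gained it at 4 tiles, which averaged 34.3 points, by the authors' deposited tables. At the tile across the start, 91801401, line 1 was at -35.4 points and line 3 at 33.3 points in the authors' deposited tables. The tile at 91801201, which lies upstream of the start and overlaps the sequence shown, was at -60.9 points in line 1 after 12 months in the authors' deposited table and was not listed elsewhere. In line 1, the tiles at 91800801 and 91801401 were gained with BrafV600E and lost after long culture, the reverse of the order seen at Zeb1.

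**Figure D4:**
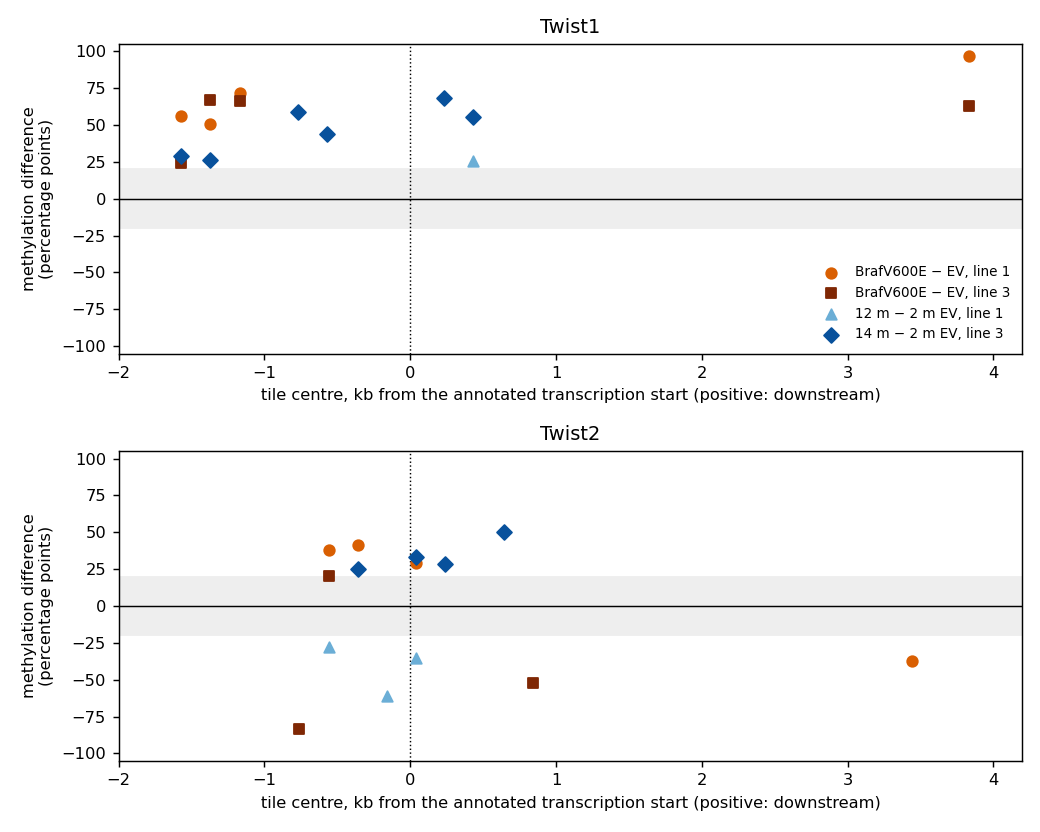
Methylation difference in percentage points (y axis) of the tiles of Twist1 (top) and Twist2 (bottom) by distance in kb from the annotated start (x axis, dotted line at 0), with a grey band at differences under 20 points, which are not listed. All Twist1 points lie above 0, whereas at Twist2 line 1 lies below 0 and line 3 above it after long culture.

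The Snai genes held few tiles. Snai1 (gene 20613, chromosome 2, 167538195 to 167542814), which encodes Snail, a repressor of E-cadherin, gained 32.7 points in line 1 at 167538401 and 24.5 points in line 3 at the adjoining tile 167538201 with BrafV600E in the authors' deposited tables, with tile centres 306 and 106 bases downstream of its start. Line 3 was at -56.2 points at 167540001 in the authors' deposited table. Snai2 (gene 20583, chromosome 16, 14705852 to 14709395), which encodes Slug, had all 5 of its entries at 2 adjoining tiles at the lower-coordinate end. With BrafV600E the authors' deposited tables put the tile at 14706001 at -23.8 points in line 1 and -43.7 points in line 3; the tile at 14705801, listed in line 3, was at -27.7 points. After long culture the tile at 14706001 was at -46.7 points in line 1 and 32.5 points in line 3 in the authors' deposited tables, so the lines went opposite ways. Snai3 (gene 30927, chromosome 8, 122454204 to 122460809), the least studied of the 3, had a single entry, a difference of -25.8 points at 122460401 in line 3 with BrafV600E in the authors' deposited table.

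Across the 7 genes, 13 tiles were listed in both lines with BrafV600E, and 10 of them had the same direction, against 73.9% of 5934 such tiles in the whole series. The 3 exceptions are the Zeb2 tiles around the inner start. After long culture 4 tiles were listed in both lines, with the same direction at Zeb1 and Twist1 and opposite directions at Snai2 and Twist2; over the series 68.5% of 3220 had the same direction.

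Genes most like each of the 5 members with tiles in all 4 comparisons were found by the distance between the mean listed differences over these comparisons, among 1943 genes with a tile in each. Some means rest on 1 tile, as for Zeb2 and Twist1 in line 1 after long culture. The Snai2 means rest on 1 tile each, except for 2 tiles in line 3 with BrafV600E. The Zeb1 mean of -12.4 points in line 1 after long culture pools 1 gain and 1 loss. The Zeb2 mean of 12.5 points in line 3 with BrafV600E pools 5 gains and 4 losses. Over all 4 comparisons Cfap100 and Tmem64 had 5 listed tiles each and Olig3 had 6. Nearest to Zeb1 were Cfap100, at a distance of 23.5 points, then Cd80 and Tmem64. Nearest to Zeb2 were the POU homeobox gene Pou3f3 (10.5 points), the helix-loop-helix gene Olig3 and Cfap221, and nearest to Snai2 were Ccdc60 (11.5 points), Arhgef2 and Cdcp3. Nearest to Twist1 were the homeobox gene Dlx2 (13.0 points), Cyp26b1, whose product degrades retinoic acid, and Gfra4. Sh3rf3 (8.42 points), Spock1 and Ttc28 were nearest to Twist2. Dlx2 gained 59.8 and 46.2 points on average with BrafV600E and 28.6 and 47.1 points after long culture in the authors' deposited tables, line 1 first, beside 68.8, 55.1, 25.5 and 47.1 points for Twist1.

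Genes that act with or under these factors were described in 5 lists, each gene by its span plus 2 kb, with both lines pooled. With BrafV600E, 13.5% of protein-coding genes had gained tiles only, 10.8% lost tiles only, 14% tiles of both directions and 61.7% none. After long culture these shares were 12.3%, 8.99%, 10% and 68.7%. Of 30 epithelial genes that Zeb and Snai proteins are known to repress or that mark the same programme, 11 had gains only with BrafV600E, 3 losses only and 2 both directions. Gains only in both lines were seen at Tjp1, which encodes the tight junction scaffold ZO-1 (on average 40.9 and 32.0 points, the authors' deposited tables, line 1 first), and at Cldn3, Epcam and Muc1. This pattern was found at 4.31% of all protein-coding genes. Epcam, an epithelial adhesion molecule, averaged 65.0 points over 3 tiles of line 1 and 55.6 points at 1 tile of line 3 by the authors' deposited tables. Cdh1, which encodes E-cadherin and was looked up after its values were seen, gained at 3 tiles in line 3, on average 56.3 points by the authors' deposited table, and had 0 listed tiles in line 1. After long culture Cdh1 had 1 lost tile at -32.5 points in line 1, and 2 gained and 2 lost tiles averaging -3.54 points in line 3, by the authors' deposited tables. After long culture 4 of the 30 had gains only, 2 losses only and 3 both directions, and 0 had tiles of 1 direction in both lines. Of all protein-coding genes, 3.03% had gain only in each line and 1.16% loss only.

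Factors that keep the epithelial programme, 24 genes including 9 microRNAs that restrain Zeb or Snai or oppose the switch, had 9 with gains only, 0 with losses only and 3 with both directions with BrafV600E. Gata3, a zinc finger factor of epithelial fate, led with 10 gained tiles in line 1 and 18 in line 3, at means of 46.5 and 47.1 points by the authors' deposited tables, and Foxa2 followed at 49.7 and 48.8 points. After long culture 3 of the 24 had gains only, 2 losses only and 5 both directions. The 5 miR-200 genes Mir200a, Mir200b, Mir429, Mir200c and Mir141 had 0 listed tiles in either comparison. The first 3 are neighbours on chromosome 4 and the other 2 on chromosome 6, so their windows overlap. Of all protein-coding genes, 61.7% had no listed tile with BrafV600E and 68.7% had none after long culture. Whether the miR-200 windows were covered is unknown. Mir34b and Mir34c, neighbours on chromosome 9 that share the same tiles and whose human counterparts target SNAI1, gained in both lines of both comparisons. Their means were 41.3 points over 1 tile and 50.3 points over 6 tiles with BrafV600E, and 67.6 points over 2 tiles and 52.2 points over 4 tiles after long culture, by the authors' deposited tables for lines 1 and 3. The mature 5p strand from Mir34b is shown with its seed, bases 2 to 8, in capitals (RefSeq, GRCm38.p6).
mmu-miR-34b-5p: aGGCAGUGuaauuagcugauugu

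Among 29 mesenchymal genes, 24 had a listed tile with BrafV600E: 6 with gains only, 6 with losses only and 12 with both directions. After long culture 9 had gains only, 2 losses only and 9 both directions. Gains only in both lines after long culture were seen at 6 of the 29, beside 3.03% of all protein-coding genes. By the authors' deposited tables, line 1 first, these were Cdh11 (47.4 and 53.1 points), Foxc2 (28.3 and 53.5 points) and Prrx1 (46.3 and 43.9 points). The others were Pdgfra (51.9 and 75 points, 1 tile in each line), Cdh2 (42.9 and 55.2 points) and Vim (33.8 and 41.1 points). The line 3 directions follow the title of the library tagged 2 months. Foxc2 also had gains only with BrafV600E (42.5 and 42.9 points by the authors' deposited tables), as did Prrx1. Of 29 partners and corepressors, 10 had gains only with BrafV600E, 5 losses only and 3 both directions, and after long culture the counts were 7, 4 and 2. With BrafV600E, 3 of the partners had gains only in both lines, by the authors' deposited tables, line 1 first. They were Hand2 (36.8 and 41.3 points), Hand1 (33.1 and 38.7 points) and Gsk3b (44.7 and 73.1 points, 2 tiles in each line). This pattern was found at 4.31% of all protein-coding genes. Ctbp1, which encodes the corepressor that Zeb proteins bind, was at -36.9 and -24.1 points, and Id2 at -21.7 and -23.3 points. Tcf4 had 1 gained and 4 lost tiles in line 1, averaging -35.9 points, and 5 gained tiles in line 3, averaging 45.6 points. Tcf3 gained at 1 tile in line 1 alone, and Tcf12 had 0 listed tiles. After long culture, Id4 (61.8 and 33.1 points) and Hand1 (39.1 and 43.0 points) had gains only in both lines.

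Markers of stromal, endothelial and immune cells were listed as well, since such cells carry their own methylation at these genes. Of 20 such genes, 2 had gains only with BrafV600E, 5 losses only and 7 both directions, and after long culture 5, 1 and 3. Pdgfrb, a pericyte and fibroblast receptor, lost methylation in both lines with BrafV600E (-49.7 and -39.0 points), and Ano1, Pdgfra and Des gained it in both lines after long culture, in the authors' deposited tables. Of all protein-coding genes, 1.69% had loss only in each line with BrafV600E and 3.03% gain only in each line after long culture. The part of other cell types in the differences at the 7 genes was not tested.

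**Figure D5:**
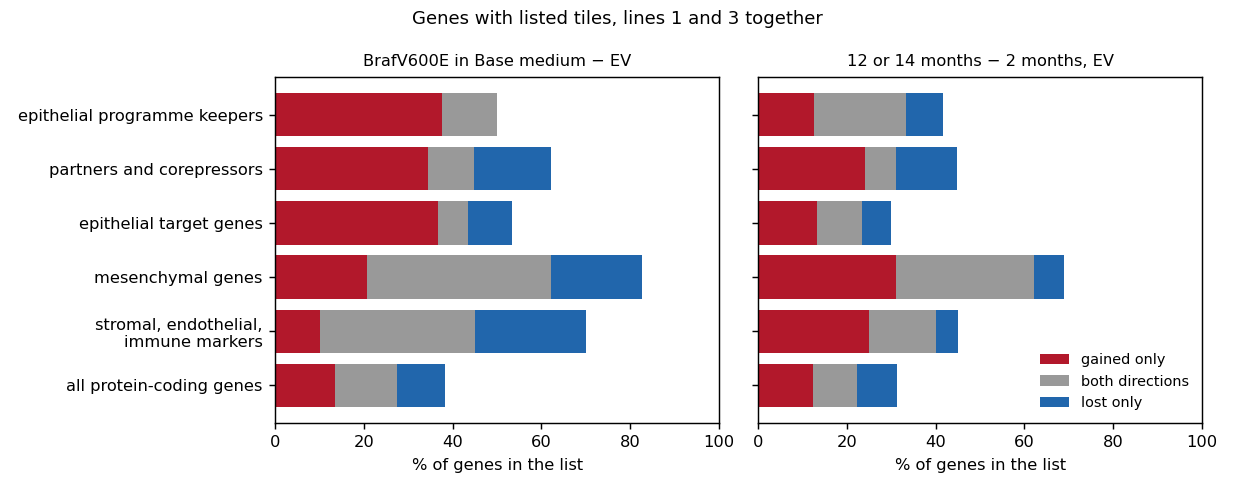
Share of the genes of each list (x axis, percent) with listed tiles of gain only, both directions or loss only in the span plus 2 kb, lines 1 and 3 together, for BrafV600E in Base medium (left) and long culture (right), with all protein-coding genes in the lowest bar. With BrafV600E, gains only were found at 37.5% of the epithelial programme keepers, 34.5% of the partners, 36.7% of the epithelial target genes, 20.7% of the mesenchymal genes and 10% of the stromal, endothelial and immune markers, beside 13.5% of all protein-coding genes. Tiles of both directions were found at 41.4% of the mesenchymal genes, 35% of the stromal, endothelial and immune markers and 12.5% of the epithelial programme keepers. They were found at 10.3% of the partners and 6.67% of the epithelial target genes, beside 14% of all. The keepers include microRNAs, which are not protein-coding, and Mir34b and Mir34c share the same tiles.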

How the data were processed

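Reduced representation bisulfite libraries were read as 50 bp single ends, per the labels. The submitters' processing notes name methylKit 1.7.4, Bismark 0.14.3, Trim Galore 0.4.4, FastQC 0.11.7 and the build GRCm38 (mm10). Their settings and coverage minimum were not given in the sources used here. Per the file headers, the authors deposited a methylation difference (percent, in percentage points) for each 200 bp tile together with its p-value and q-value.

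The members and gene lists were chosen with earlier results of these data known. Tiles were joined to gene spans of RefSeq GRCm38.p6 (21887 protein-coding genes) plus 2 kb by any overlap, with Python 3.11.15, pandas 2.3.3 and numpy 2.4.6; the join was tested on simulated tiles. All 130 list genes matched. No test was made; the q-values are the authors' and no depth, interval or replicate error could be given. Named were the 7 members, up to 4 genes of each list and comparison with tiles of 1 direction, the same in both lines, ranked by the smaller tile count and then the smaller mean difference, and the 3 genes nearest to each member. Alternatives were a difference of at least 40 points, q under 0.001, no flank, 5 kb either side, tiles wholly inside the window, and either line left out; an exchange of the line 3 libraries titled 14 and 2 months was added after seeing the data. Pairs of libraries stand as the authors paired them, by line.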

Additional observations from a re-analysis of the deposited data

Results flagged for a closer look

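At 3 members, all the tiles listed in both lines of a comparison went opposite ways in line 1 and line 3. Zeb2 had 3 such tiles with BrafV600E, gained in line 1 and lost in line 3. Snai2 had 1 such tile and Twist2 had 1 after long culture, each lost in line 1 and gained in line 3. These differences between the lines were not tested, since each line has 1 library a group. The line 1 BrafV600E library and the line 3 library titled 14 months are those with conflicting labels.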

How the results depend on the processing

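The tables list only tiles past the authors' limits, so weaker settings could not be tried and the precision of a tile is unknown. With BrafV600E the 7 genes had 25 gained and 27 lost tiles over both lines, and after long culture 33 gained and 6 lost. With a difference of at least 40 points, 14 gained and 16 lost tiles were left with BrafV600E and 21 gained after long culture. Without the flanks 14 gained tiles were left with BrafV600E: Twist1 kept 0 of 8, which ends its gain in both lines, and Twist2 kept 1 of 4. After long culture 3 of 7 gained tiles of Twist1 and 1 of 3 lost tiles of Twist2 were left. With q under 0.001, 5 kb flanks or tiles wholly inside the window, each of the 4 counts stayed within 1.5 times its value. Leaving out either line gave 11 to 14 gained and 8 to 19 lost tiles with BrafV600E, and 3 to 30 gained and 1 to 5 lost after long culture: line 3, whose 14-month library has the label conflict, holds 30 of the 33 gains after long culture. Over 90 counts of single genes under settings other than leaving out a line, 73 stayed within 1.5 times and 17 did not. With a line left out, 13 of 36 such counts stayed within 1.5 times and 23 did not. Without line 3, 3 stayed and 15 did not, and without line 1, 10 stayed and 8 did not. With the 14-month and 2-month libraries of line 3 exchanged, an alternative chosen after seeing the data, long culture gave 4 gained and 35 lost tiles. No paired analysis was possible because the counts come from no test; each listed difference is already a difference within a line, and no test over the 2 lines was made.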
